A study of Homo sapiens with 8 samples.

Results

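PDE4D, a gene on the minus strand of chromosome 5 that spans 58.265 to 59.818 Mb of the hg19 build, carried less H3K27ac peak length after CEBPB knockdown than after control siRNA in A549 cells. The locus was taken as the 2 Mb from 58.0 to 60.0 Mb around the gene, and it was chosen by its loss of called peak length in these same libraries, so its values are a description and carry no test. Within it lay 87 of 47370 peaks in the siRNA-1 library and 116 of 48216 peaks in the siRNA-2 library, against 141 of 45537 peaks in control 1 and 141 of 45651 peaks in control 2. Merged over the 4 libraries, these peaks formed 151 of 60669 regions on chromosomes 1 to 22 and X.

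A549 is an established human lung adenocarcinoma cell line, and per the series title its transcription factor NRF2 is active. Cells received siRNA-1 or siRNA-2 against CEBPB, 1 library each, or a control siRNA in 2 libraries, and H3K27ac was then measured by chromatin immunoprecipitation and single-end sequencing of 101 bases. The medium was changed 24 h after transfection and the chromatin was taken another 24 h later. The series holds 8 samples, of which the 4 input libraries were not analysed here. No label says whether the 2 controls came from separate cultures, and their spread may therefore be technical. The knockdown libraries differ in the siRNA used, and their spread contains that difference. The peak lists hold no measure of CEBPB RNA or protein, so the knockdown itself was not checked here. No read counts were at hand and the depth is unknown.

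PDE4D encodes a phosphodiesterase that breaks down the second messenger cAMP, and so limits signalling through protein kinase A. The gene is unusually long and has several alternative promoters, which give long and short isoforms. H3K27ac marks active promoters and enhancers, and runs of closely spaced marked elements occur inside long introns. CEBPB is a basic leucine zipper transcription factor that binds C/EBP motifs.

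RefSeq lists 8 start windows for PDE4D on GRCh38.p14, each of 300 bases around a start. That build differs from the build of the peaks, so the windows could not be placed on the peaks and are shown for their letters only. Motifs were searched on both strands. The C/EBP letters TTGCNNAA matched in 1 of the 8 windows and in 10.5% of all 35116 RefSeq windows, and the AP-1 letters TGANTCA matched in 2 of 8 and in 7.71% of all. The cAMP response element TGACGTCA matched in 0 of 8 and in 1.85% of all, and its shorter form TGACG, which the full element contains, matched in 1 of 8 and in 24.6%. The antioxidant response element TGACNNNGC, the letters read by NRF2, matched in 1 of 8 windows and in 13.3% of all.

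Both windows with an AP-1 match are printed, because one of them is also the window with the C/EBP match. They are given 5′ to 3′ on the minus strand with matches in capitals. The window at chr5:59039427-59039726 is the seventh from the 5′ end, with 68.3% G and C, a C/EBP match on the opposite strand from base 60 and an AP-1 match from base 241. The window at chr5:60496237-60496536 is the outermost, with 37.7% G and C and an AP-1 match from base 127.
PDE4D window with C/EBP and AP-1: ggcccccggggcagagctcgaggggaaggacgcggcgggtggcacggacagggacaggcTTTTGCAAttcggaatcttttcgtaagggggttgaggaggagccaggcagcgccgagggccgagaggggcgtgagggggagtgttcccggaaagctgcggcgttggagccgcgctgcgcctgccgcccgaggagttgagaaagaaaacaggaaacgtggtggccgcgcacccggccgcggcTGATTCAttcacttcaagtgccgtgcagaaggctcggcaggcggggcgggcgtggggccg
PDE4D outermost window with AP-1: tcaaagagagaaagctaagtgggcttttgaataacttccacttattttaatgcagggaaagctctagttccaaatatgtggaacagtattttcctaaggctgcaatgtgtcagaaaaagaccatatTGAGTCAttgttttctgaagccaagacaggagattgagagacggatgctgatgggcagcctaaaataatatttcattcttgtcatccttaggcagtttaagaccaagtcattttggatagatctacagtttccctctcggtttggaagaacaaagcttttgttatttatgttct

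Across the 2 Mb, peaks covered 252 kb for siRNA-1 and 263 kb for siRNA-2, against 385 kb in control 1 and 352 kb in control 2. Both knockdown libraries lay below both controls. The mean was 258 ± 8.07 kb after knockdown and 368 ± 23.3 kb in controls (SD, n = 2 each), a difference of -110.7 kb, or 30.1% below the controls. The 2 siRNAs lay closer to each other than either did to a control.

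The same order held as a share of each list. The locus held 0.358% of all called length for siRNA-1 and 0.427% for siRNA-2, against 0.567% in control 1 and 0.567% in control 2, although total called length did not follow the groups, at 70.4 Mb for siRNA-1 and 61.7 Mb for siRNA-2, against 67.9 Mb in control 1 and 62.1 Mb in control 2. Peak number averaged 101.5 ± 20.5 after knockdown and 141 ± 0 in controls (SD, n = 2 each), a difference of -39.5 peaks. Leaving out siRNA-2 made the difference -54 peaks and leaving out siRNA-1 made it -25. Widths did not follow the groups, with a median of 874 bp for siRNA-1 and 562.5 bp for siRNA-2, against 613 bp in control 1 and 661 bp in control 2.

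Set among all 1418 windows of 2 Mb with called length, the PDE4D window had the most negative difference, and it also had the most called length in the controls. The next most negative window stood at -78.0 kb, the median window at 0.491 kb and the highest at 62.2 kb. Since the median window held only 35.5 kb in controls, the size of the difference and the amount of marked DNA cannot be told apart by rank alone. Among the 138 windows with at least 100 kb in controls, PDE4D held the seventh lowest share, with knockdown at 69.9% of controls, where the lowest window stood at 54.2% and the median at 97.1%.

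Nearly all of the called length, and so of the difference in kilobases, lay inside the gene. Within PDE4D, peaks covered 241 kb for siRNA-1 and 252 kb for siRNA-2, against 368 kb in control 1 and 337 kb in control 2, a difference of -106.0 kb. The stretch left of the gene in the window, beyond its 3′ end, held 9.37 kb for siRNA-1 and 9.72 kb for siRNA-2, against 14.4 kb in control 1 and 12.8 kb in control 2. The stretch right of it, upstream of the 5′ end, held 1.37 kb for siRNA-1 and 1.73 kb for siRNA-2, against 1.91 kb in control 1 and 2.47 kb in control 2. In relative terms the outer stretches were as low as the gene, at 29.9% below the controls on the left and 29.2% on the right, against 30.1% inside, but on few kilobases.

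In RefSeq order, the next protein-coding genes beyond the 3′ end are RAB3C, GAPT and PLK2, and beyond the 5′ end DEPDC1B, ELOVL7 and ERCC8. Genes listed as overlapping PDE4D include the long noncoding RNA genes PART1 and PDE4D-AS1 and the microRNA gene MIR582, and peak lists cannot assign a peak to one gene of an overlapping pair. The megabase from 57 to 58 Mb went the other way, with 62.8 kb for siRNA-1 and 65.5 kb for siRNA-2, against 59.2 kb in control 1 and 57.1 kb in control 2. From 60 to 61 Mb there were 44.1 kb for siRNA-1 and 44.1 kb for siRNA-2, against 41.8 kb in control 1 and 40.1 kb in control 2. Summed over each flank, called length was thus slightly higher after knockdown. By 100 kb steps the flanks were mixed: on the left 4 of 9 steps with peaks had both knockdown libraries below both controls and 3 had them above, and on the right 3 of 10 were below and 5 above.

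At the window's left edge, the nearest peak outside lay 141 kb away for siRNA-1 and 237 kb away for siRNA-2, against 141 kb in control 1 and 141 kb in control 2. The first peak inside lay 182 kb from the edge for siRNA-1 and 182 kb for siRNA-2, against 156 kb in control 1 and 182 kb in control 2. At the right edge the next peak outside lay 75.0 kb away for siRNA-1 and 75.1 kb for siRNA-2, against 75.3 kb in control 1 and 75.5 kb in control 2. No called peak therefore sat on either edge.

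The marked DNA was in the 3′ part of the gene. From its 3′ end to 59.1 Mb the gene held 238 kb for siRNA-1 and 249 kb for siRNA-2, against 366 kb in control 1 and 334 kb in control 2. The rest of the gene up to its 5′ end held 3.60 kb for siRNA-1 and 2.43 kb for siRNA-2, against 2.30 kb in control 1 and 2.34 kb in control 2, and here the knockdown libraries were not lower. The 5′ part of PDE4D from 59.1 Mb on therefore carried little called H3K27ac in any of the 4 libraries. Which isoform starts lie in it is not known here, because the start windows could not be placed on the peaks.

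**Figure D1:**
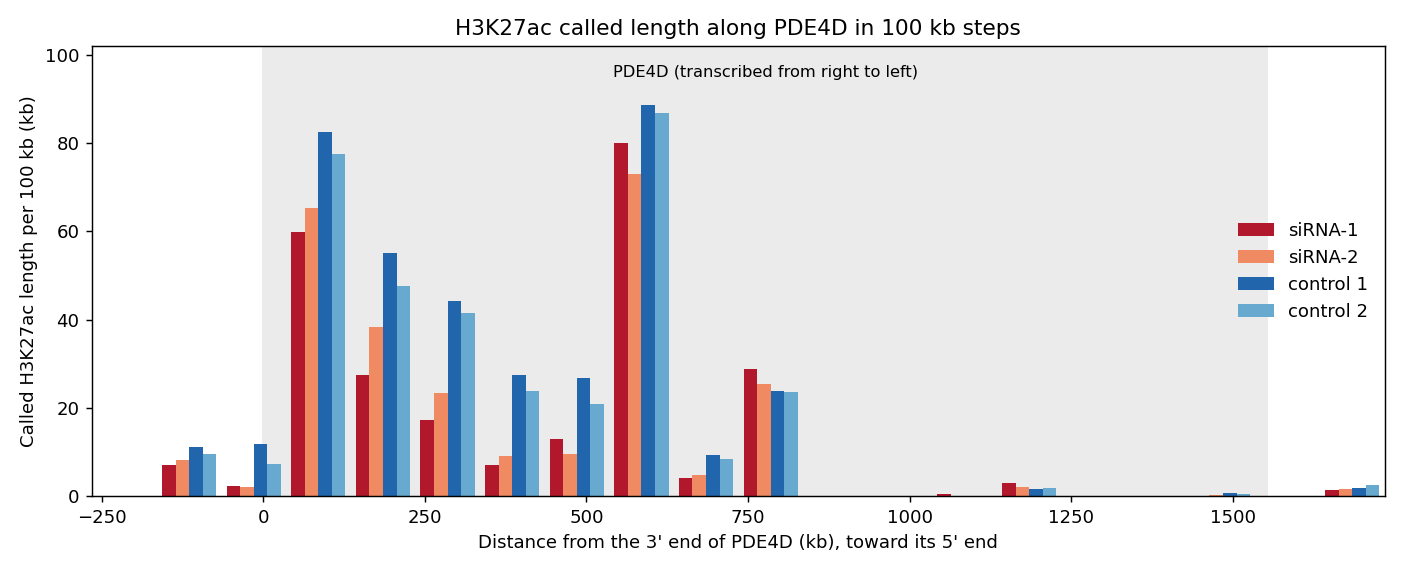
Called H3K27ac length in kb per 100 kb step (vertical axis) against distance in kb from the 3′ end of PDE4D (horizontal axis), 1 bar per library with siRNA-1, siRNA-2, control 1 and control 2 from left to right, and the gene shaded. Both knockdown bars lie below both control bars in all 9 steps from 58.1 to 59.0 Mb and above them in the step from 59.0 to 59.1 Mb.

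Of the 20 steps of 100 kb in the window, 6 held no peak in any library. Both knockdown libraries were below both controls in 11 steps, a pattern found in 26.7% of the 16075 steps with called length in the genome, and above both in 2 steps, against 28.8% in the genome. The remaining step, from 59.3 to 59.4 Mb, held 1 peak of siRNA-1 only. All 9 consecutive steps from 58.1 to 59.0 Mb were lower. Steps rich in called length were lower more often over the genome too. Of the 1690 steps with at least 10 kb in controls, 43.2% were lower and 21.7% were higher. At PDE4D there were 8 such steps and 7 were lower.

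The most negative step was 58.5 to 58.6 Mb, with 17.3 kb for siRNA-1 and 23.5 kb for siRNA-2, against 44.3 kb in control 1 and 41.5 kb in control 2. Its difference of -22.5 kb was the fifth most negative of the 16075 steps. The step from 58.4 to 58.5 Mb held 27.4 kb for siRNA-1 and 38.2 kb for siRNA-2, against 55.0 kb in control 1 and 47.6 kb in control 2, a difference of -18.5 kb. The step from 58.6 to 58.7 Mb held 7.003 kb for siRNA-1 and 9.06 kb for siRNA-2, against 27.4 kb in control 1 and 23.9 kb in control 2, a difference of -17.6 kb. In relative terms this last step was the lowest of the 3, at 31.3% of the controls. The step from 58.2 to 58.3 Mb stood lower still, at 22.8%, but on fewer kilobases. It held 2.25 kb for siRNA-1 and 2.08 kb for siRNA-2, against 11.8 kb in control 1 and 7.19 kb in control 2.

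The reduction was uneven along the gene. The 300 kb from 58.5 to 58.8 Mb stood 57.0% below the controls, with 37.4 kb for siRNA-1 and 42.2 kb for siRNA-2, against 98.3 kb in control 1 and 86.4 kb in control 2. The densest step, 58.8 to 58.9 Mb, stood only 12.8% below, with 79.9 kb for siRNA-1 and 72.9 kb for siRNA-2, against 88.6 kb in control 1 and 86.8 kb in control 2. Peaks in that step were not fewer, with 15 for siRNA-1 and 16 for siRNA-2, against 6 in control 1 and 15 in control 2. Near the 3′ end, the step from 58.3 to 58.4 Mb held 59.8 kb for siRNA-1 and 65.2 kb for siRNA-2, against 82.4 kb in control 1 and 77.5 kb in control 2.

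Both steps with more length after knockdown lay right of 59.0 Mb. From 59.0 to 59.1 Mb there were 28.9 kb for siRNA-1 and 25.5 kb for siRNA-2, against 23.9 kb in control 1 and 23.6 kb in control 2, a difference of 3.44 kb. From 59.4 to 59.5 Mb there were 3.07 kb for siRNA-1 and 2.09 kb for siRNA-2, against 1.60 kb in control 1 and 1.83 kb in control 2, a difference of 0.868 kb. The description of the locus as losing acetylation thus applies mainly to its called length from 58.1 to 59.0 Mb and not to these steps. The steps from 59.7 to 59.8 Mb and from 59.9 to 60.0 Mb were also lower. They held no more than 0.701 kb and 2.47 kb in any library.

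**Figure D2:**
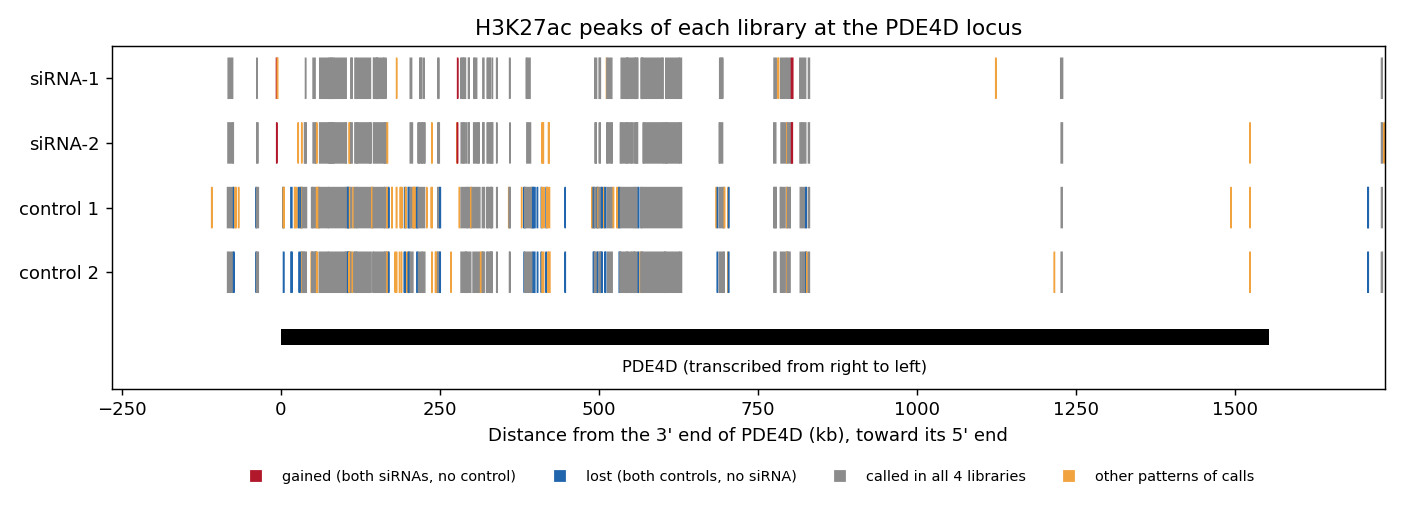
Positions of the peaks of each library (rows, siRNA-1 and siRNA-2 above control 1 and control 2) against distance in kb from the 3′ end of PDE4D, with the gene as a black bar. Grey peaks belong to the 37 regions called in all 4 libraries and blue peaks to the 31 regions with a peak in both controls and with neither siRNA. Narrow peaks are drawn slightly wider than scale so that they can be seen. Most blue peaks lie among the grey ones in the 3′ part of the gene, with 1 region beyond its 5′ end.

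Regions were sorted by which libraries had a peak in them. Both controls had a peak in 78 regions. Of these, 31 lacked one with either siRNA and are called lost here, which is 39.7%, where the same share over the whole genome was 13.3%. Leaving out control 1 gave 67 lost regions and leaving out control 2 gave 85, since a region then needed a peak in 1 control only. Both siRNAs had a peak in 40 regions. Of these, 3 lacked one in either control and are called gained, which is 7.50%, where the genome share was 13.6%. Leaving out siRNA-1 gave 9 gained regions and leaving out siRNA-2 gave 8. The locus was chosen on this contrast, so these shares describe it and are no evidence beyond that choice.

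Among the other regions, 37 were called in all 4 libraries. A further 10 were called in both controls and with 1 siRNA, of which 9 lacked a peak for siRNA-1 and 1 lacked a peak for siRNA-2, where the genome had 1908 and 1778 such regions. There were 60 regions called in a single control, 44 of them in control 1 and 16 in control 2, and 9 called with a single siRNA. Single-control regions were 39.7% of the 151 regions here and 12.48% of all regions in the genome, and single-siRNA regions were 5.96% here and 21.1% in the genome. The last region had a peak with siRNA-2 and in control 2.

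Most of the missing length came from regions that kept a peak. Regions called in all 4 libraries covered 246 kb for siRNA-1 and 254 kb for siRNA-2, against 327 kb in control 1 and 314 kb in control 2, a difference of -70.7 kb or 63.9% of the net difference. Lost regions had covered 26.3 kb in control 1 and 20.4 kb in control 2, which gives -23.4 kb or 21.1%. Regions in a single control gave -12.2 kb or 11.0%, and regions missing with 1 siRNA gave -9.08 kb or 8.20%. Gained regions added 2.58 kb and regions with a single siRNA added 2.05 kb.

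**Figure D3:**
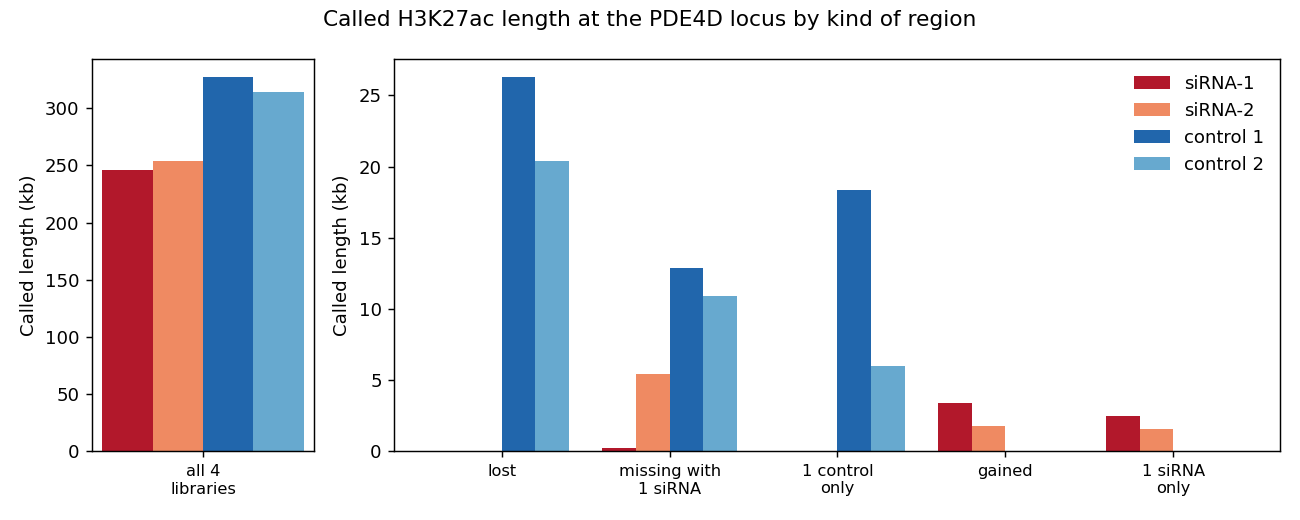
Called H3K27ac length in kb (vertical axes, 2 scales) by the libraries in which a region had a peak, 1 bar per library with siRNA-1, siRNA-2, control 1 and control 2 from left to right. Regions called in all 4 libraries (left panel) hold most of the length and run from 246 kb with siRNA-1 to 327 kb in control 1, and the lost regions hold 26.3 kb in control 1 and 20.4 kb in control 2.

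The same was seen base by base. Both controls called 331 kb in common, of which 67.4 kb lay in neither knockdown list. That is 20.4%, where the genome share was 12.4%. Both knockdown libraries called 225 kb in common, of which 5.17 kb or 2.30% lay in neither control list, where the genome share was 12.6%. All 4 libraries shared 216 kb. The overlap of called bases, as the shared length over the joint length, was 0.773 between the siRNAs and 0.816 between the controls, and it lay between 0.595 and 0.680 for a knockdown library and a control. Over the genome the siRNAs overlapped at 0.659, the controls at 0.765 and the mixed pairs at 0.574 to 0.613.

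The 37 regions called throughout were mostly shorter after knockdown. In 25 of them, or 67.6%, both knockdown libraries were shorter than both controls, where the genome share was 25.6%. In 3, or 8.11%, both were longer, where the genome share was 26.9%, and in 9 the groups overlapped. The median region kept 75.8% of its control length, where the genome median was 101%. In 8 regions less than 50% was kept, which is 21.6% of the 37, where the genome share was 5.01%.

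Position in the window divided these regions, of which 3 lie outside PDE4D, at a point of 59.0 Mb that was picked after seeing the values. Of 29 regions to its left, toward the 3′ end, 24 were shorter and 0 longer. Of the 8 to its right, 1 was shorter and 3 were longer. Lost regions were split in the same way, with 29 on the left and 2 on the right, of which 1 lies beyond the gene. The 9 regions of at least 10 kb in controls were all shorter, and summed to 168 kb after knockdown and 208 kb in controls. They kept between 41.6% and 94.5% of control length, with a median of 86.2%. Of the 564 regions of that size in the genome, 44.1% were shorter and 14.7% longer.

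**Figure D4:**
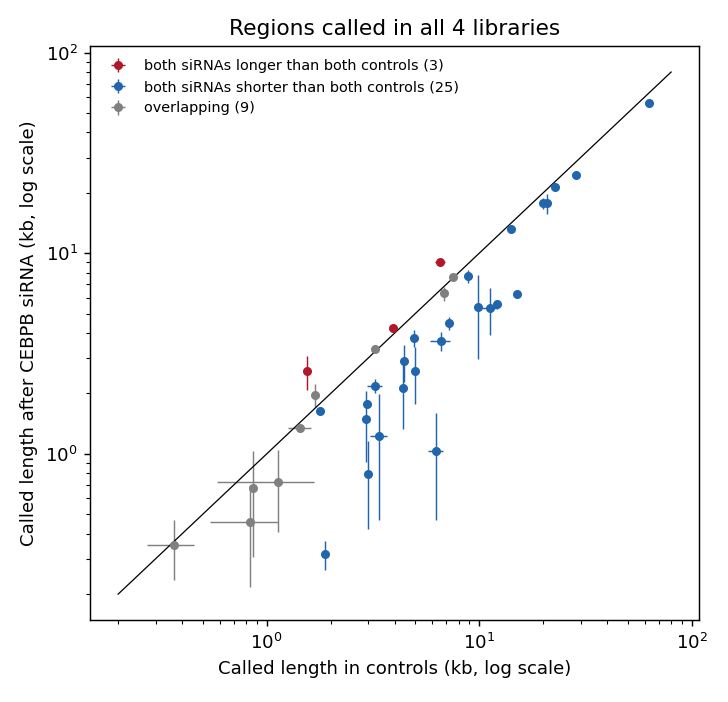
Mean called length after CEBPB knockdown (vertical axis, kb, log scale) against mean called length in controls (horizontal axis, kb, log scale) for the 37 regions called in all 4 libraries, with bars over the range of the 2 libraries of each group and a line of equal length. The 25 blue regions, shorter in both knockdown libraries, lie below the line, and the 3 red regions, longer in both, lie above it.

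The largest difference in a region called throughout was at chr5:58548327-58563890, a long intragenic region. It held 6.39 kb for siRNA-1 and 6.12 kb for siRNA-2, against 15.0 kb in control 1 and 15.1 kb in control 2, so that 41.6% was kept. The knockdown length lay in 7 separate peaks for siRNA-1 and 6 for siRNA-2, against 2 in control 1 and 3 in control 2. A run that was called nearly whole in the controls was thus called as several shorter pieces after knockdown. By fold enrichment the region ranked 16 of 37 for siRNA-1 and 25 for siRNA-2, against 14 in control 1 and 20 in control 2.

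Nearby, 2 further regions of at least 10 kb in controls kept less than 50% of their control length. The region chr5:58648267-58660772 held 5.27 kb for siRNA-1 and 5.86 kb for siRNA-2, against 11.8 kb in control 1 and 12.49 kb in control 2. By its highest fold enrichment in each library, it was ranked among the same 37 regions. It stood at 14 for siRNA-1 and 12 for siRNA-2, against 6 in control 1 and 6 in control 2. The region chr5:58565980-58578130 held 3.93 kb for siRNA-1 and 6.73 kb for siRNA-2, against 12.2 kb in control 1 and 10.4 kb in control 2, and ranked 20 for siRNA-1 and 15 for siRNA-2, against 8 in control 1 and 9 in control 2. These regions were thus lower in order as well as shorter.

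The lowest share kept was at chr5:58298870-58305646, close to the 3′ end of the gene. It held 0.469 kb for siRNA-1 and 1.61 kb for siRNA-2, against 6.78 kb in control 1 and 5.73 kb in control 2, or 16.6% of the controls. Ordered by −log10 q within each whole list, its strongest peak stood at percentile 17.2 for siRNA-1 and 57.8 for siRNA-2, against 69.4 in control 1 and 67.8 in control 2. It was thus lower in its list as well as shorter with both siRNAs, and lowest with siRNA-1. By fold enrichment it was near the bottom of the 37 regions throughout. It stood at rank 33 for siRNA-1 and 27 for siRNA-2, against 30 in control 1 and 30 in control 2.

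The 5 regions with the highest −log10 q in the weakest of the 4 libraries are described next. The rule reads the knockdown lists too, so a region much weaker after knockdown could not enter it, although ordering by the controls alone gave the same 5 regions. The longest, chr5:58830911-58895331, measured 64.4 kb and held 57.7 kb for siRNA-1 and 54.8 kb for siRNA-2, against 64.0 kb in control 1 and 62.4 kb in control 2, or 89.0%. It accounts for most of the densest 100 kb step. The region chr5:58340067-58369193 held 24.1 kb for siRNA-1 and 25.2 kb for siRNA-2, against 28.7 kb in control 1 and 28.5 kb in control 2. Its fold enrichment in the authors' lists was 54.9 for siRNA-1 and 57.5 for siRNA-2, against 81.0 in control 1 and 75.4 in control 2, each on its own list's scale. It had the highest fold enrichment at the locus in the siRNA-1 and control 1 lists, and not in those of siRNA-2 and control 2.

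The region chr5:58410148-58431572 held 15.8 kb for siRNA-1 and 19.8 kb for siRNA-2, against 21.1 kb in control 1 and 20.7 kb in control 2. The region chr5:58325273-58339562 held 13.1 kb for siRNA-1 and 13.4 kb for siRNA-2, against 14.3 kb in control 1 and 13.9 kb in control 2, which is 94.0% of the controls. Beyond the 3′ end of the gene, chr5:58181369-58190595 held 7.11 kb for siRNA-1 and 8.22 kb for siRNA-2, against 8.99 kb in control 1 and 8.73 kb in control 2. These 5 regions were shorter with both siRNAs, and each kept at least 85.1% of its control length. High signal in the controls did not always go with that, since chr5:58648267-58660772, at rank 6 by fold enrichment in both controls, kept 45.7%.

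The region with the largest increase in length was chr5:59080925-59090385, right of 59.0 Mb. It held 9.28 kb for siRNA-1 and 8.85 kb for siRNA-2, against 6.91 kb in control 1 and 6.21 kb in control 2, or 138% of the controls. By fold enrichment it ranked 7 of 37 regions for siRNA-1 and 9 for siRNA-2, against 20 in control 1 and 18 in control 2. It was thus both longer and higher in order after knockdown.

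Farther toward the 5′ end, chr5:59491018-59494090 held 3.07 kb for siRNA-1 and 2.09 kb for siRNA-2, against 1.60 kb in control 1 and 1.504 kb in control 2, or 166%. By fold enrichment it ranked 10 for siRNA-1 and 10 for siRNA-2, against 23 in control 1 and 24 in control 2. This is the only region called in all 4 libraries in the 5′ part of the gene from 59.1 Mb on. The third region longer in both knockdown libraries was chr5:59061440-59066181, with 4.29 kb for siRNA-1 and 4.18 kb for siRNA-2, against 3.77 kb in control 1 and 4.12 kb in control 2. Its excess over control 2 was smaller than the difference between the controls.

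Of the 5 regions with the largest increase, the other two overlapped between the groups. The region chr5:58375157-58377392 held 1.71 kb for siRNA-1 and 2.23 kb for siRNA-2, against 1.73 kb in control 1 and 1.63 kb in control 2. The region chr5:59040001-59043901 held 3.49 kb for siRNA-1 and 3.21 kb for siRNA-2, against 3.32 kb in control 1 and 3.12 kb in control 2. Neither differed beyond the spread between libraries.

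Lost regions were short and weak in the controls. They measured 382 to 3712 bp, with a median of 778 bp, and 28 of the 31 lay within PDE4D. Their fold enrichment in the authors' lists ran from 2.16 to 7.48 in control 1 and from 2.89 to 9.12 in control 2. Only 1 of the 31 reached a −log10 q of 10 in each control. A region that is absent from a list had no peak call there, which is not the same as no acetylation.

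That single region, chr5:58661123-58664834, had no peak with siRNA-1 or siRNA-2, against 3.15 kb in control 1 with a fold enrichment of 7.48 and 2.68 kb in control 2 with a fold enrichment of 9.12. It lay 350 bp from chr5:58648267-58660772, the region described above that kept 45.7% of its length. Next in strength was chr5:58769286-58771001, with no peak after either siRNA, against 1.72 kb and a fold enrichment of 5.95 in control 1 and 0.895 kb and a fold enrichment of 5.57 in control 2. At chr5:58280995-58282686 there was again no peak with either siRNA, against 1.69 kb and a fold enrichment of 6.61 in control 1 and 1.34 kb and a fold enrichment of 4.83 in control 2. Each of these 3 lies inside the gene, left of 59.0 Mb.

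The region chr5:58515085-58516109 had no peak with either siRNA, against 1.02 kb in control 1 and 0.678 kb in control 2. The region chr5:58968710-58969387 likewise had none, against 0.536 kb in control 1 and 0.647 kb in control 2. At chr5:59090530-59091041, with none after either siRNA, control 1 had 0.394 kb and control 2 had 0.480 kb. This last one lay 144 bp from the region with the largest increase in length, so a lost call and a longer neighbour stood side by side.

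The remaining 4 of the 10 lost regions ranked by the lower −log10 q of the controls were chr5:58465467-58466356, chr5:58674539-58675196, chr5:58293000-58294701 and chr5:58682075-58682901. None had a peak with either siRNA, and all 4 lay within PDE4D, left of 59.0 Mb.

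Lost regions sat close to regions that were kept. Their median distance to the closest region with a peak in every library was 1655 bp, and 22 of 31, or 71.0%, lay within 5 kb of one, where 28.8% of lost regions in the genome did and the genome median was 18421 bp. The 5 kb limit was set after seeing the data. Since regions called throughout are dense at PDE4D, closeness to one was more likely here than elsewhere, and the share was not corrected for that.

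All 3 gained regions were weak. The region chr5:59067778-59069996 held 2.22 kb with siRNA-1 at a fold enrichment of 7.54 and 1.22 kb with siRNA-2 at a fold enrichment of 3.99, and had no peak in either control. The region chr5:58542794-58543276 held 0.276 kb for siRNA-1 and 0.222 kb for siRNA-2, and chr5:58258279-58259170, just beyond the 3′ end, held 0.892 kb for siRNA-1 and 0.339 kb for siRNA-2, both with no peak in either control. The strongest of them lay in the step from 59.0 to 59.1 Mb, which was also longer in all.

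Regions that kept a peak held more peaks after knockdown than in control 1, and less clearly so than in control 2. The 37 regions held 78 peaks for siRNA-1 and 95 for siRNA-2, against 53 in control 1 and 77 in control 2. Per region this is 2.11 for siRNA-1 and 2.57 for siRNA-2, against 1.43 in control 1 and 2.08 in control 2, where the same quantity over all such regions of the genome was 1.23 for siRNA-1 and 1.38 for siRNA-2, against 1.23 in control 1 and 1.33 in control 2. Regions called as a single peak did not follow the groups, with 23 of 37 for siRNA-1 and 15 for siRNA-2, against 23 in control 1 and 17 in control 2. The longest single peak at the locus measured 30413 bp for siRNA-1 and 31081 bp for siRNA-2, against 62779 bp in control 1 and 34559 bp in control 2. Without control 1 the longest peaks of the groups differ by far less.

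The position of the strongest summit within a region was mostly shared inside a group. It lay within 500 bp in 29 of 37 regions between the siRNAs and in 29 of 37 between the controls. Between a knockdown library and a control it did so in 19 to 25 regions. No share over the genome was computed for these summit counts, so they describe the locus only. Peaks of low fold enrichment made up a large part of the locus in every library: 51.7% of peaks for siRNA-1 and 50% for siRNA-2, against 56.7% in control 1 and 53.9% in control 2, were under 5. In the whole lists that share was 34.1% for siRNA-1 and 33.3% for siRNA-2, against 36.5% in control 1 and 35.0% in control 2. The median fold enrichment at the locus was 4.63 with siRNA-1, 5.01 with siRNA-2, 4.52 in control 1 and 4.83 in control 2, each on its own list's scale.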

How the data were processed

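H3K27ac was measured in 4 A549 libraries. Per the submitters' processing notes, the authors used MACS2 2.2.7.1, SAMtools 1.7.0 and BWA 0.7.17 on build hg19; their options and any use of the inputs are not given in the sources. Every library has its own list. For each peak the authors deposited positions, a fold enrichment (a linear ratio), −log10 p and −log10 q values, and a score, which was not used. Fold enrichment and −log10 q depend on the unknown depth and served only to describe, rank and filter peaks within a list. The highest q per list was 0.0454 to 0.0498.

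Peaks of the 4 lists overlapping by 1 bp or more were merged into regions on chromosomes 1 to 22 and X. A lost region had a peak in both controls and neither siRNA, and a gained region the reverse. Called length counts bases inside peaks, so a deeper library or a broader call changes it whatever the acetylation. The members, classes and lists were chosen with earlier results of these data known, and no test was run because the locus was selected on these values. The regions named are the 10 lost regions with the highest lower −log10 q of the controls, every gained region, and of the regions called throughout the 5 with the highest lowest −log10 q and the 5 with the largest length difference in each direction. The steps named are the 3 most negative and the 2 that were higher, and others described after seeing their values. Promoter windows and gene order came from RefSeq tables of GRCh38.p14. With no annotation of the files' build, other cAMP pathway genes were not analysed here. Merging and counting were tested on simulated data. Python 3.11.15, pandas 2.3.3, NumPy 2.4.6 and Matplotlib 3.10.9 were used.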

Additional observations from a re-analysis of the deposited data

How the results depend on the processing

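The difference in called length at PDE4D was negative under every alternative run. With 1 library left out, it ran from -127.1 to -94.2 kb in the window and from -121.9 to -90.1 kb in the gene. Both knockdown libraries lay below both controls in each, so leaving out 1 library could not change the sign. Trimmed to an equal total called length, the lists gave -107.4 kb, with 225 kb for siRNA-1 and 263 kb for siRNA-2, against 353 kb in control 1 and 350 kb in control 2. With replicate number as a block the value was -110.7 kb, which is the same by construction. Of 67 alternatives, 51 left a value within its spread or a count within 1.5 times and 16 moved it further. Some of the 51 were fixed in advance. Kept regions were not counted anew when no peak within 1 kb was required. Both controls had 141 peaks, so leaving out either one left the peak difference as it was. Only 22 of the 67 concern a signed difference, which stayed negative, and the other 45 concern counts, which have no sign.

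Counts of regions depended on the settings, and beyond what the counting rules fix, the cause was not tested. At −log10 q of 10 or more, the peak difference was -12.5, with 6 lost and 0 gained regions. At equal total called length there were 14 lost and 1 gained. Stitching peaks within 1 kb gave 12 lost, and within 12500 bp 2 lost, 0 gained and 11 kept regions. Requiring no knockdown peak within 1 kb left 20 lost. Without 1 library in turn, lost regions numbered 34 to 85, gained 3 to 9, kept 38 to 47, and kept and shorter 27 to 37. Lower steps numbered 11 each time, and the peak difference ran from -54 to -25. With fewer libraries the rules for lost, gained and lower are easier to meet, so the lost, gained and lower-step counts could not fall. Steps of 50 kb gave 18 lower of 40, and steps of 200 kb gave 7 of 10. Here all steps of that size in the window are counted, with or without peaks. No genome share was computed for either size. The shorter kept regions were set as a result, and their alternatives added, after seeing the data. With unknown depth, a missing weak peak cannot be told from a shallower library.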
